A study of Caenorhabditis elegans with 2 samples.

Results

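The mitochondrial chromosome of Caenorhabditis elegans and the chromatin immunoprecipitation sequencing (ChIP-seq) peaks called on it for LIN-13 are described here. The members were all genes that the Ensembl annotation of WBcel235 (ce11) places on that chromosome, 36 of 46926 annotated genes, together with every peak on it. They comprised 12 protein-coding genes, 2 rRNA genes and 22 tRNA genes, all on the plus strand of a molecule of 13794 bp. Of the 2141 peaks kept by the irreproducible discovery rate (IDR) procedure, which compares peak ranks between lists, 20 were mitochondrial. An IDR peak need not have a peak in each replicate, and 19 of these 20 overlapped a peak in both. The relaxed lists that fed the procedure had 30000 peaks apiece, of which 24 were mitochondrial for the pooled replicates, 24 for replicate 1 and 21 for replicate 2.

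Chromatin came from whole L4 larvae, males and females pooled, of strain OP49. The strain bears the allele unc119(ed3) and the insertion wgIs49, a transgene that joins lin-13 with TY1, EGFP and FLAG tags and also holds unc119. What drives the transgene is not stated in the labels, and they describe no change to the endogenous lin-13 gene. Whole animals were used, so tissues cannot be told apart. Both biological replicates formed 1 group without a contrasting condition, so no test over samples existed and all values below are descriptions. The files used here held no read counts, so depth was unknown. The signal value of a peak was the authors', with no stated scaling, and values were read within a list or by rank unless both replicates are named.

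Mitochondrial DNA is a small circular molecule kept in several copies inside mitochondria, apart from the nuclear chromosomes. Its protein-coding genes specify core subunits of the respiratory chain and of ATP synthase, and its rRNA and tRNA genes serve the organelle's own ribosomes. A long AT-rich region without genes is the main non-coding part of the molecule in nematodes. LIN-13, a nuclear protein with zinc fingers, belongs to the synMuv B genes, known for restraining vulval fate.

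The sequences at the summits of the 5 highest mitochondrial IDR peaks and of the lowest one follow, to show what the signal lay on. They are given 5' to 3' on the plus strand of ce11 from the RefSeq sequence of WBcel235. Capitals mark the 20 bases around the summit, except in the last line, which is the repeat unit of the AT region and has none.
ND5, chrM:12394-12513: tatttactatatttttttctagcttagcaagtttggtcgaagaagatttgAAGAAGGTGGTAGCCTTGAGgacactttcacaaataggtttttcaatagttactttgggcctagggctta
CYTB, chrM:4675-4794: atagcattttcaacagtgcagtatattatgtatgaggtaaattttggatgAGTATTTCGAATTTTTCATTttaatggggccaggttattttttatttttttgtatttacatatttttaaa
ATP6, chrM:2901-3020: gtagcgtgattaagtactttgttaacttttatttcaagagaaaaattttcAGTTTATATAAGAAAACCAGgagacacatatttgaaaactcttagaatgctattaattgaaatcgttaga
COX1, chrM:8229-8348: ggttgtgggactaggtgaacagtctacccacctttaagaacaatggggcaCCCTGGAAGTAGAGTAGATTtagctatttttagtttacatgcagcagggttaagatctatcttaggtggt
s-rRNA, chrM:894-1013: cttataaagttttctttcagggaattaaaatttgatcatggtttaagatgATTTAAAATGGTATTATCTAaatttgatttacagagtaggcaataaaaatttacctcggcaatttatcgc
ND4, lowest peak, chrM:7647-7766: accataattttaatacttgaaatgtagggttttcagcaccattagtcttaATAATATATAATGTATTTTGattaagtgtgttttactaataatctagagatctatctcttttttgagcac
AT region repeat unit, chrM:13406-13448: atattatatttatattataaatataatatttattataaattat

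The GC content of these windows ran from 24.2% at the CYTB summit to 43.3% at the COX1 summit, and the ND5 window, at the highest peak of all, had 35.8%. The lowest peak, in ND4, stood at 25.8%, within the range of the 5 highest. The whole molecule was 23.8% GC, with 44.8% T, 31.4% A, 14.9% G and 8.88% C on the plus strand. The AT region ran from 13329 to 13794 (466 bp) and was 6.87% GC. Its longest exact tandem repeat spanned 209 bp (13406 to 13614) in 4 full copies of the 43 bp unit, which holds no G or C.

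Peaks covered a large share of the molecule and included the highest values in every list. The 20 IDR peaks covered 6193 bp, or 44.9% of the mitochondrial chromosome, against 0.68% of the nuclear genome. Of 7266 nuclear windows of the same length, 5682 held no IDR summit, the fullest held 8, and the most covered had 19.5% of its bases in peaks. The pooled relaxed list covered 52.2% of the molecule against 9.75% of the nuclear genome, replicate 1 covered 50.2% against 9.60%, and replicate 2 covered 44.0% against 9.34%. In both replicates, then, the molecule was covered to a far larger share than the nucleus.

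Mitochondrial IDR peaks had signal values from 51.7 to 1428, with a median of 266.6. The nuclear IDR peaks had values from 40.1 to 634.7, with a median of 56.5, so the ratio of medians was 4.72. The ranges overlapped, and 15 of the 100 highest IDR peaks were mitochondrial. In replicate 1 the mitochondrial values ran from 5.73 to 717.2 (median 141.4) and the nuclear values from 5.51 to 292.8 (median 8.93). In replicate 2 they ran from 5.36 to 714.2 (median 132.2) and from 3.99 to 342.9 (median 6.62). Within the 10 highest peaks, 6 were mitochondrial in replicate 1 and 7 in replicate 2. Within the 100 highest, there were 17 and 13. Of the 20 mitochondrial IDR peaks, 17 had the list's usual width of 336 bp, which 92.4% of nuclear IDR peaks also had.

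**Figure D1:**
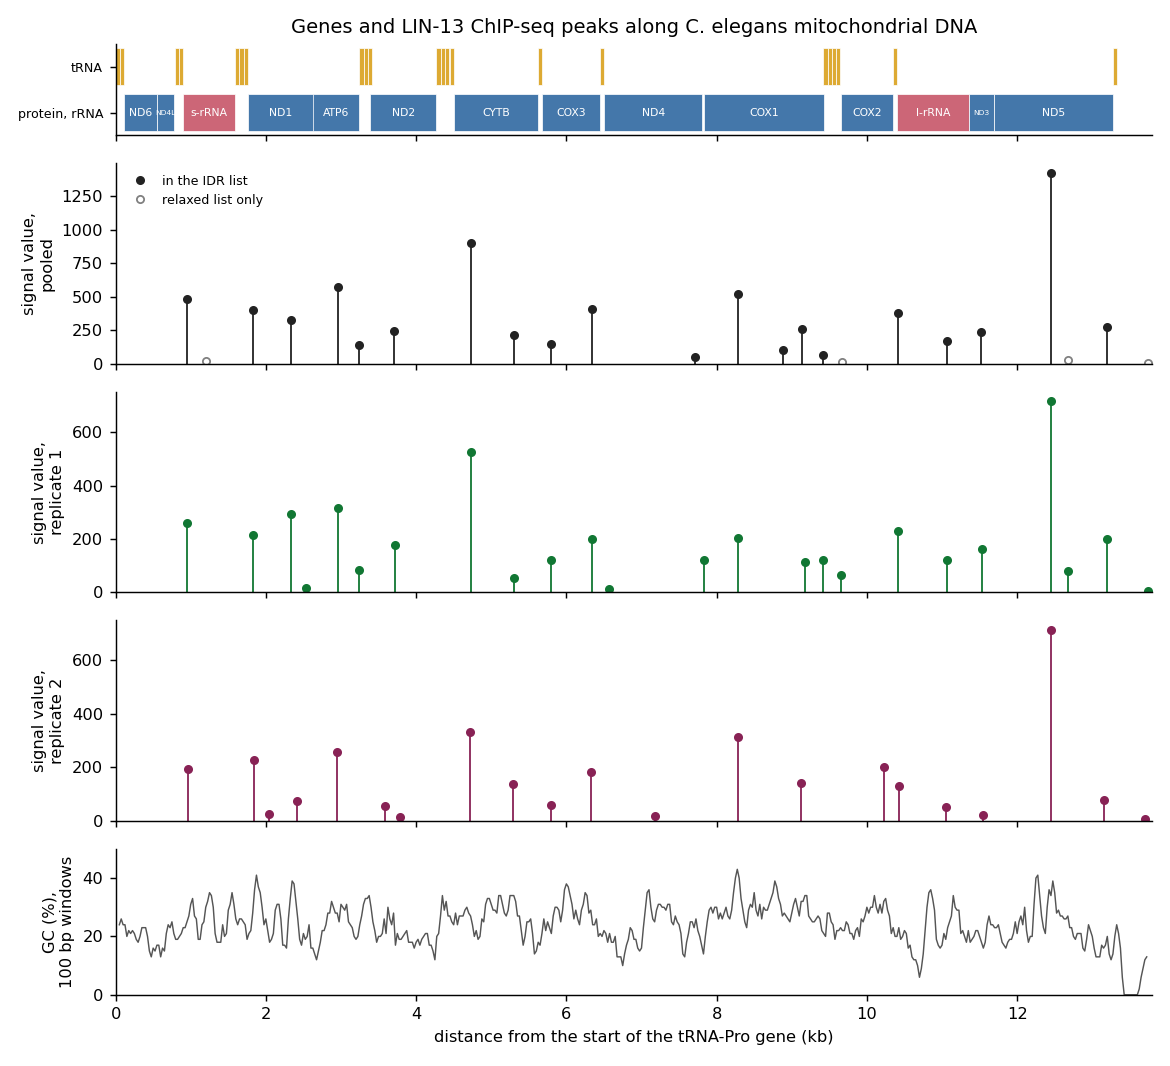
Genes of the mitochondrial chromosome and peak summits along it, with the signal value on the vertical axes for the pooled list (filled points in the IDR list, open points in the relaxed list only), replicate 1 and replicate 2, and GC content in 100 bp windows (percent) at the bottom; the horizontal axis is the distance from the start of tRNA-Pro in kb. The ND5 peak is highest in each list (1428, 717.2 and 714.2), and no IDR summit lies in the AT region or in ND6 and ND4L.

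Among genes, 26 of 36 (72.2%) were overlapped by an IDR peak by at least 1 bp, against 4.17% of 46890 nuclear genes. The protein-coding genes had 10 of 12 overlapped, against 5.67% of 19973 nuclear ones. Both rRNA genes were overlapped. Of the tRNA genes 14 of 22 were, against 35.6% of 612 nuclear tRNA genes. These genes share peaks: the 26 genes drew their highest value from 14 peaks, so their counts are not independent. Mitochondrial genes are also short, with a median length of 56 bp against 196 bp for nuclear genes.

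Summits fell in fewer genes than peaks did. An IDR summit lay inside 11 of the 36 genes, 9 protein-coding and both rRNA genes, and inside no tRNA gene. The nuclear shares by the same rule were 2.09% of all genes, 2.83% of protein-coding genes and 18% of tRNA genes. A single IDR peak covered 50% or more of 15 of the 36 genes, against 1.59% of nuclear genes. Of the 20 summits, 16 lay in protein-coding genes, 3 in rRNA genes and 1 between ATP6 and tRNA-Lys. Protein-coding genes had 45.5% of their bases in IDR peaks, rRNA genes 44.8%, tRNA genes 56.5% and the AT region 0%. The share in peaks was thus alike in protein-coding and rRNA genes, which make up 75.7% and 11.9% of the molecule. The tRNA genes, with 0 of the 20 summits, make up only 8.55% of it.

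Complex I, the NADH dehydrogenase of the respiratory chain, has 7 subunits encoded here, and these held both the highest peak of the molecule and the protein-coding genes without any. ND5 (WBGene00010967, 11691 to 13272) had the highest value in all lists: 1428 in the IDR list, 717.2 in replicate 1 and 714.2 in replicate 2. Its peak spanned 12327 to 12556, with the summit at 12454, and the summits of the replicates were 1 bp apart. It ranked 1 of all peaks, nuclear ones included, in each list.

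ND5 held another IDR summit at 13197, in a peak from 13089 to 13283 that reached 9 bp into tRNA-Ala. That peak had 275.1 in the IDR list, 201.2 in replicate 1 and 77.5 in replicate 2, so it was 2.60 times higher in replicate 1. ND5 also had a relaxed peak from 12504 to 12839 beside its highest one, with a pooled value of 29.8 and 80.8 in replicate 1. Replicate 2 had no summit of its own there. Peaks of the IDR list covered 26.2% of the gene.

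ND1 (WBGene00010959, 1763 to 2635) had 2 IDR summits, at 1827 and 2329. The peak from 1659 to 1994 had 400.5 in the IDR list, 214.3 in replicate 1 and 229.0 in replicate 2. The peak from 2161 to 2496 had 330.1 in the IDR list, 295.6 in replicate 1 and 74.4 in replicate 2. The replicates were close at the first of these peaks and 3.97 times apart at the other, where their summits lay 82 bp from each other. IDR peaks covered 65.1% of ND1.

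ND2 (WBGene00010961, 3389 to 4269) and ND3 (WBGene00010966, 11356 to 11691) had the 2 highest ratios between replicates among the 16 peaks compared below. The ND2 peak from 3540 to 3875 had 244.0 in the IDR list and 177.1 in replicate 1. Replicate 2 had 2 peaks there, the nearer summit with 15.4 at 77 bp from the IDR summit and the other with 57.6 at its own summit of 3584. The replicate 1 value was 11.5 times that of the nearer one. The ND3 peak covered the gene from end to end, with 235.8 in the IDR list, 161.6 in replicate 1 (rank 21) and 24.0 in replicate 2 (rank 1357), and its replicate summits were 7 bp apart. ND3 thus ranked far lower in replicate 2. For ND2 the nearer peak had rank 3307 in replicate 2, against rank 17 in replicate 1. By its highest overlapping peak, ND2 had rank 165 in replicate 2.

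ND4 (WBGene00010963, 6506 to 7808) had 412.1 in the IDR list, 198.4 in replicate 1 and 16.7 in replicate 2 by the rule that takes the highest overlapping peak. The IDR and replicate 1 values came from a COX3 peak. It reached 3 bp into ND4 in the IDR list and ended at 6506, the first base of ND4, in replicate 1. The COX3 peak of replicate 2 (182.5) ended at 6487, short of ND4. The 1 IDR summit inside ND4, at 7707, belonged to the lowest mitochondrial IDR peak, from 7539 to 7874 (51.7, rank 1318). Replicate 1 had a peak with its summit 124 bp away, inside COX1 (119.8), and replicate 2 had none there. The replicate 2 value of ND4 came from a peak from 7018 to 7337 that no other list held. A stretch of 1030 bp of ND4, from 6509 to 7538, had no IDR peak.

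ND6 (WBGene00010957, 113 to 549) and ND4L (WBGene00010958, 549 to 783) had no peak in any of the 4 lists. They lie in the longest stretch without an IDR peak, 1296 bp from 13284 across the end of the numbering to 785. That stretch also holds the AT region, tRNA-Pro and tRNA-Val and was 15.0% GC, against 23.8% for the molecule. ND6 was 19.9% GC and ND4L 18.3%. The part of base composition in the missing peaks was not tested.

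Complex III is represented by CYTB (WBGene00000829, 4504 to 5621), which encodes cytochrome b. Its peak from 4621 to 4870 ranked 2 in the IDR list with 904.4, 2 in replicate 1 with 526.1 and 3 in replicate 2 with 333.1. Its other peak, from 5139 to 5474, had 213.3 in the IDR list, 52.1 in replicate 1 and 139.7 in replicate 2. That was the 1 peak of the 16 in which replicate 2 was more than 2 times the higher. CYTB thus held peaks with opposite order between replicates.

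Complex IV, cytochrome c oxidase, has its 3 core subunits encoded here. COX1 (WBGene00010964, 7827 to 9428) held 4 IDR summits, the most of any gene, and IDR peaks covered 68.6% of it. Its highest peak, from 8121 to 8456, had 522.8 in the IDR list, 202.4 in replicate 1 and 315.3 in replicate 2. The peak from 8966 to 9301 followed with 258.2 in the IDR list, 114.2 in replicate 1 and 142.1 in replicate 2. These were among the 4 compared peaks higher in replicate 2. The remaining COX1 peaks, from 8714 to 9049 (99.7) and from 9246 to 9581 (65.7), each overlapped that peak. Replicate 1 had its own summit for the latter (121.1), and replicate 2 for neither.

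COX3 (WBGene00010962, 5678 to 6449) had its highest peak from 6173 to 6508, with 412.1 in the IDR list, 198.4 in replicate 1 and 182.5 in replicate 2. Its other peak, from 5630 to 5965, had 143.9 in the IDR list, 121.0 in replicate 1 and 59.8 in replicate 2. COX2 (WBGene00010965, 9649 to 10348) held no IDR summit, and IDR peaks covered 14.9% of it. Its value of 376.3 in the IDR list and 229.5 in replicate 1 came from a peak with its summit in l-rRNA. In replicate 2 a peak with its summit inside COX2, at 10227, gave 200.6. COX2 is the 1 protein-coding gene with an IDR peak but no IDR summit.

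ATP6 (WBGene00010960, 2634 to 3235), a subunit of the membrane part of ATP synthase, had 573.8 in the IDR list (rank 4), 317.6 in replicate 1 (rank 3) and 257.0 in replicate 2 (rank 5). Its peak ran from 2793 to 3128, and the replicate summits were 12 bp apart. A peak from 3075 to 3410 overlapped the gene's end and had its summit between ATP6 and tRNA-Lys, with 138.0 in the IDR list and 82.3 in replicate 1. Replicate 2 had no summit of its own there, its nearest one among overlapping peaks being 293 bp from that of replicate 1.

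The rRNA genes carry the RNAs of the mitochondrial ribosome's small and large subunits. The small subunit gene s-rRNA (WBGene00014454, 898 to 1593) had 482.4 in the IDR list, 260.9 in replicate 1 and 195.1 in replicate 2, from a peak at its 5' end (786 to 1121). The large subunit gene l-rRNA (WBGene00014472, 10403 to 11354) had 376.3 in the IDR list, 229.5 in replicate 1 and 132.2 in replicate 2 from a peak across its 5' end (10245 to 10580). A further l-rRNA peak, from 10897 to 11232, had 169.7 in the IDR list, 119.8 in replicate 1 and 50.9 in replicate 2. All 3 were higher in replicate 1.

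The 22 tRNA genes, 52 to 62 bp long, are each shorter than a peak of usual width. The 14 with an IDR peak had highest values from 65.7 (tRNA-Cys, tRNA-Met and tRNA-Asp) to 482.4 (tRNA-Trp and tRNA-Glu), with a median of 209.5. Those values were the values of 8 peaks whose summits lay in neighbouring genes or, for the peak at tRNA-Lys, tRNA-Leu (UUR) and tRNA-Ser (AGN), between genes. No IDR peak reached tRNA-Pro, tRNA-Val, tRNA-Ser (UCN), tRNA-Ile, tRNA-Arg, tRNA-Gln, tRNA-Phe or tRNA-Gly. The group from tRNA-Ile to tRNA-Phe lay in a stretch of 745 bp without an IDR peak (3876 to 4620). tRNA-Gly had a pooled relaxed value of 9.80 and 64.3 in replicate 1.

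**Figure D2:**
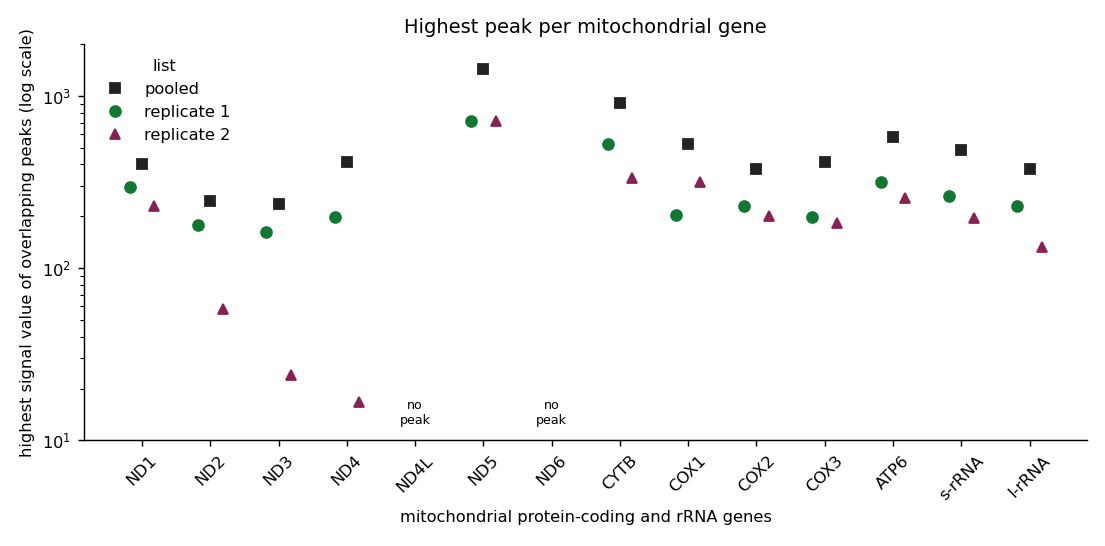
Highest signal value (log scale) of the peaks overlapping each of the 12 protein-coding and 2 rRNA genes in the pooled list, replicate 1 and replicate 2, with 1 point per list. ND5 has nearly equal replicate values (717.2 and 714.2), ND3 is far lower in replicate 2 (24.0), and ND4L and ND6 have no peak. ND4 is at 16.7 in replicate 2, while its pooled and replicate 1 values come from the edge of a COX3 peak.

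Summits were spread along the molecule outside the AT region. Neighbouring IDR summits, counted around the circle, were between 252 and 1551 bp apart, with a median of 587.5 bp. The IDR peaks merged into 17 covered stretches, separated by gaps of 123 to 1296 bp with a median of 296 bp. The AT region held no IDR peak, and all 3 relaxed lists had 1 peak at its end, with 9.19 for the pooled replicates, 5.73 in replicate 1 and 5.36 in replicate 2. Those were the lowest mitochondrial values of each list, at ranks 25819, 28639 and 20835.

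Replicates had most summits within 100 bp of each other, and several of these peaks differed in height. A replicate 2 summit lay within 100 bp of 17 of the 24 replicate 1 summits (70.8%), and 30.5% of the molecule lay that near to a replicate 2 summit. The other way it was 17 of 21 (81.0%), with 34.6% of the molecule that near to a replicate 1 summit. Overlap by 1 bp separates little here, since a replicate 1 peak of usual width would meet a replicate 2 peak at 79.3% of positions on the molecule, and the reverse holds at 81.9%. Of the 24 mitochondrial peaks of replicate 1, 22 (91.7%) overlapped a peak of replicate 2 by at least 1 bp, and 20 of 21 (95.2%) the other way. Peaks of either replicate covered 58.5% of the molecule. Replicate 1 covered 6919 bp and replicate 2 covered 6064 bp, with 4920 bp in common, which was 71.1% of the first and 81.1% of the other. By the 1 bp overlap, replicate 1 alone had peaks from 7666 to 7995 (119.8) and from 9488 to 9817 (64.3). By the same overlap, replicate 2 alone had the ND4 peak from 7018 to 7337 (16.7). By summits within 100 bp, the highest unmatched peak of replicate 2 had its summit at 10227 in COX2 (200.6, rank 8). That of replicate 1 had its summit at 9420 in COX1 (121.1, rank 52).

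For 16 of the 20 IDR peaks both replicates had a summit within 100 bp. In these 16 the replicate summits were 1 to 82 bp apart, with a median of 13 bp, and 12 pairs were within 20 bp. The other 4 mitochondrial IDR peaks, with values of 138.0, 99.7, 65.7 and 51.7, lacked such a summit in 1 or both replicates. The matched share was 80.0% of the 20, against 93.6% of 2121 nuclear IDR peaks and 96.5% of the 1298 nuclear ones at or above 51.7.

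The ratio of replicate 1 to replicate 2 had a median of 1.46 over the 16 peaks, with a range from 0.373 to 11.5. It lay between 0.5 and 2 for 9 of the 16 and above 2 for 6. In the 99 nuclear peaks matched by the same rule with a value at or above 143.9, the lowest of the 16, the median ratio was 1.32, and 93 (93.9%) lay between 0.5 and 2. Ratios of these nuclear peaks ran from 0.775 to 14.9, so their highest was above that of the 16. The 6 mitochondrial peaks above 2 were those in ND2 (11.5), ND3 (6.75), ND1 (3.97), ND5 at 13197 (2.60), l-rRNA at 11065 (2.35) and COX3 at 5798 (2.02). The pooled value was 0.796 to 1.27 times the sum of the replicate values, with a median of 1.01. For ND2 and ND3 it was 1.27 times the sum, the 2 highest of the 16, and replicate 1 gave most of that sum. The ND2 sum leaves out the other replicate 2 peak there (57.6). With 1 value per replicate, the differences have no error estimate.

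Over the 20 genes with a peak in both replicates, the highest values gave a Pearson's r of 0.679 on log10 values and a Spearman's rho of 0.758. The genes drew these values from 13 peaks in replicate 1 and 14 in replicate 2 and so are not independent. For some genes, ND4, ND1 and COX2 among them, the replicates' values came from peaks at different places. Both coefficients therefore do not compare the same peaks throughout. A peak was found in replicate 1 alone for 7 genes, all tRNA genes (Lys, Leu UUR, Ser AGN, Cys, Met, Asp and Gly), and in neither for 9.

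**Figure D3:**
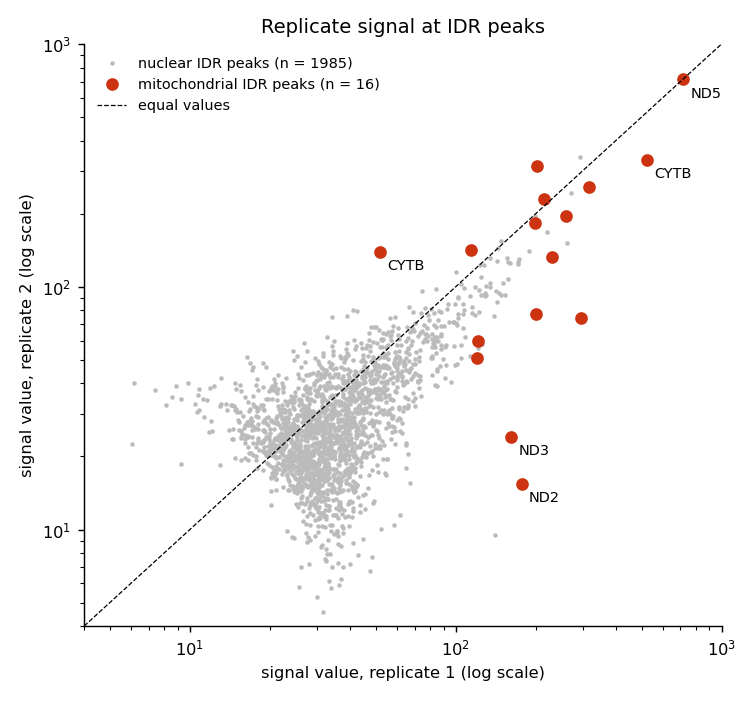
Signal value of replicate 2 against replicate 1 (both log scale) at IDR peaks matched in both, with 16 mitochondrial peaks in red and 1985 nuclear peaks in grey; the dashed line marks equal values. The ND5 peak lies on the line, and the ND2 and ND3 peaks lie far below it at 15.4 and 24.0 in replicate 2.

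Base composition moved with the mitochondrial signal, most clearly in replicate 2. Bases inside IDR peaks were 25.4% GC and those outside 22.4%, a difference of 2.97 percentage points. The difference was 1.96 points in the pooled relaxed list, 1.80 in replicate 2 and 0.747 in replicate 1. The 100 bp windows at IDR summits had a median of 26.0% GC (range 19 to 41), and 13 of the 20 were above the molecule's 23.8%. In replicate 1 the median was 23.5%, with 12 of 24 windows above the molecule, and in replicate 2 it was 26.0%, with 13 of 21 above. Over all 100 bp windows of the molecule the median was 24%. Signal and window GC gave a Spearman's rho of 0.382 over 20 IDR peaks, 0.491 over 24 peaks of replicate 1 and 0.788 over 21 of replicate 2. Pearson's r on log10 signal was 0.431, 0.507 and 0.780. Among the mitochondrial peaks within the 2141 highest of each replicate, rho was 0.288 over 21 peaks of replicate 1 and 0.752 over 18 of replicate 2. All points share 1 molecule, so these are descriptions, and the part of GC content in the signal was not tested.

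**Figure D4:**
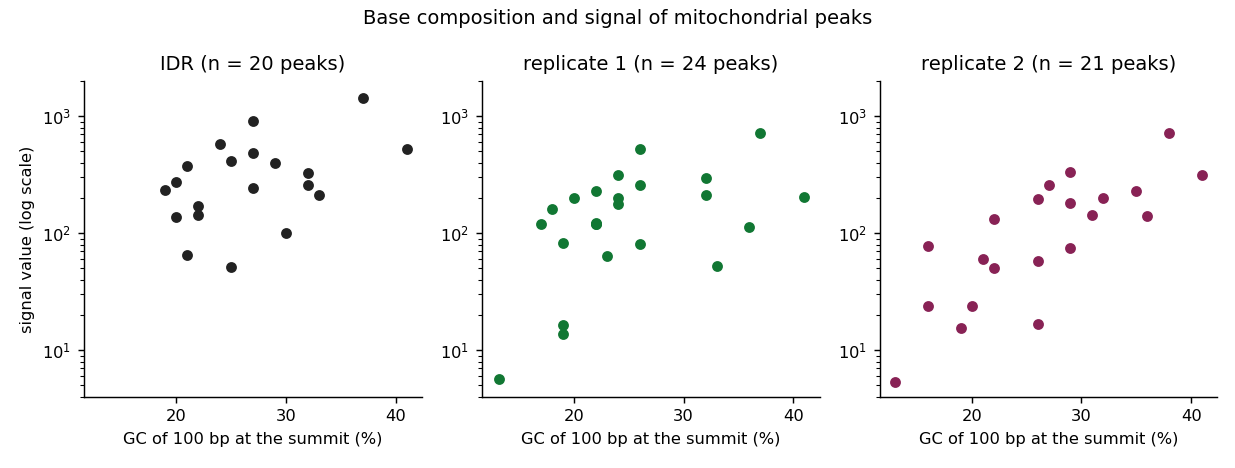
Signal value (log scale) against GC content (percent) of the 100 bp at the summit, 1 point per mitochondrial peak, for the IDR list (20 peaks), replicate 1 (24) and replicate 2 (21). Higher values go with higher GC most closely in replicate 2 (rho 0.788), and the AT region peak is the lowest point of both replicates.

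Mitochondrial and nuclear summits were also set side by side in sequence. Nuclear IDR summit windows had a median of 48% GC, on a nuclear genome of 35.4%. The highest 100 bp window anywhere on the mitochondrial molecule was 45% GC, so no mitochondrial summit window could reach that median. GAGAGAG, read on both strands, was within 100 bp of 0 of the 20 mitochondrial summits and of 19.8% of 2121 nuclear ones. It is absent from the whole mitochondrial sequence, so no mitochondrial window could hold it.

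Little mitochondrial sequence also occurred in the nuclear genome. Of 13759 start positions, 12 (0.0872%) had a stretch of 36 bases found in the nucleus on either strand. These overlapping stretches all lay from 13358 to 13404 in the AT region. No stretch of 50 bases was found in the nucleus. The 1 nuclear match of 100 bp or more was 126 bp at 96.0% identity between CYTB (4903 to 5028) and chromosome X (13457254 to 13457379). No IDR peak on the mitochondrial chromosome covered it, and no IDR or pooled relaxed peak lay on the X copy.

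Nuclear genes that maintain mitochondrial DNA or respond to its stress were looked up beside the members. Within 500 bp of a 5' end, an IDR summit was found for 1 of 8 such genes, against 6.99% of nuclear protein-coding genes. It was atfs-1, a transcription factor of the mitochondrial unfolded protein response, with a peak on chromosome V from 14193452 to 14193787. Its summit lay 47 bp upstream of the 5' end, with a value of 43.4 and rank 1853. The IDR list held no such summit for polg-1 (the mitochondrial DNA polymerase), twnk-1 (a helicase), mtss-1 (a single-strand binding protein), rpom-1 (the mitochondrial RNA polymerase), hmg-5, lonp-1 (a protease) or cps-6 (a nuclease). In the relaxed pooled list mtss-1 had 35.6 (rank 2673), lonp-1 17.9 (rank 9089) and twnk-1 8.67 (rank 27818), and 39.0% of nuclear protein-coding genes had a relaxed summit this near. Among the 4282 highest pooled peaks, a summit was found for atfs-1 and mtss-1, 2 of the 8, against 12.2% of nuclear protein-coding genes.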

How the data were processed

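Tagged LIN-13 was immunoprecipitated from 2 biological replicates of whole L4 larvae. Per the labels, fragments were 150 to 350 bp. The authors deposited narrowPeak lists on ce11 and ce10. Per the deposited listings, a relaxed list was made from either replicate and from both pooled, and these gave the IDR list. The aligner, peak caller and IDR threshold were not given in the sources used here. Each peak's signal value is the authors' caller's, deposited without a stated scaling. The deposited −log10 q-value column is capped (3.17 in all 20 mitochondrial IDR peaks) and ranked nothing. No read counts were used, so depth is unknown.

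Genes came from Ensembl release 115. Mitochondrial genes were named by RefSeq entries with the same start (34 genes) or an end within 10 bp (ND2 and COX1). Each gene took the highest signal value of peaks overlapping it by at least 1 bp. Each IDR peak was paired with the overlapping replicate peak of nearest summit. Coordinates count from 1. All members were named, and the 5 highest peaks were given in full. The members, lists and alternatives were chosen with earlier results of these data known. Gene assignment and covered length were tested on simulated data. The simulated peaks were short, met only their own gene and did not overlap, so shared and overlapping peaks were not tried. No test over samples was made. BLAST 2.17.0 (e-value 1e-05), SciPy 1.17.1, NumPy 2.4.6, pandas 2.3.3 and matplotlib 3.10.9 ran under Python 3.11.15.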

Additional observations from a re-analysis of the deposited data

How the results depend on the processing

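No paired analysis was possible because only 1 group was sampled. Of 40 alternative values 22 were classed as the same, 18 as moved and 0 as reversed in direction. Counts, covered shares and overlap percentages cannot reverse, so the 0 says nothing about them. The classes did not follow the size of a change, so the 22 and 18 do not measure stability. A fall from 26 to 19 overlapped genes was classed as the same, and a Pearson's r of 0.662 against 0.679 as moved. With 1 replicate left out, the IDR procedure was not rerun, and the 2141 highest relaxed peaks of the other replicate replaced its list. These held 18 to 21 mitochondrial peaks, which covered 38.4 to 45.6% of the molecule and overlapped 19 to 27 genes. The ratio of medians was 5.27 to 5.31. The lowest coverage and gene count came from replicate 2 alone. That ratio was 3.59 in the 1070 highest IDR peaks and 6.45 in the 4282 highest pooled peaks. The 26 overlapped genes became 15 where 1 peak had to cover 50% of the gene (1.59% of nuclear genes) and 11 where a summit had to lie inside it (2.09%).

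Replicate 1 peaks overlapped by replicate 2 fell from 91.7 to 75% with an overlap of 50% of both peaks and to 70.8% with summits within 100 bp, and the reverse rose from 95.2 to 100% in the 2141 highest peaks of each. The genes' Pearson's r was 0.717 without tRNA genes (12 genes), 0.662 on ce10 and 0.755 in the highest peaks (19 genes), and rho was 0.832, 0.681 and 0.739. The GC difference was 3.42 points with 100 bp at summits, stretches of 50 bases gave 0% shared with the nucleus, and 2 maintenance genes had a summit in the 4282 highest pooled peaks, against 12.2% of nuclear protein-coding genes. Depth is unknown, 2 replicates give no error, and reads were not analysed here.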

Other observations

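The lists on both builds held the same number of mitochondrial peaks, and the values of 1 list differed between them. All 20 mitochondrial IDR peaks matched between ce11 and ce10, and mitochondrial signal values differed by at most 0.0198% in the IDR list, 0.0254% in the pooled list and 0.0584% in replicate 2. In replicate 1 the 24 matched peaks differed by a median of 3.87% and by up to 53.6%. The usual peak width of that replicate was 330 bp on ce11 and 336 bp on ce10, while the widths of the other lists were the same on both builds. Mitochondrial values of replicate 1 therefore depend on which deposited list is read. The cause was not tested.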
